A study of Mus musculus with 17 samples.

Results

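The genes described here are the nuclear-encoded subunits of the respiratory chain and ATP synthase, 5 complexes of the inner mitochondrial membrane, chosen by their symbols in the array annotation: Nduf genes of the A, B, C, S and V series for complex I, Sdha to Sdhd for complex II, Uqcr genes and Cyc1 for complex III, Cox4 to Cox8 genes for complex IV and Atp5 genes for ATP synthase. They are 81 genes of 18193 on the array, with 164 of its 45037 probe sets, where a probe set is a group of short probes for 1 transcript. Complex I has 34 genes (72 probe sets), complex II 4 (9), complex III 9 (17), complex IV 17 (35) and ATP synthase 17 (31). A further 9 probe sets carry several symbols and were left out. In the annotation 0 probe sets carry the symbol of a mitochondrially encoded gene, while 9160 have no symbol. Ndufa4, which later work places in complex IV, is kept with complex I by its symbol.

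The respiratory chain and ATP synthase make most of the ATP of a neuron. Complex I (NADH dehydrogenase) and complex II (succinate dehydrogenase) pass electrons to ubiquinone, complex III passes them on to cytochrome c, and complex IV (cytochrome c oxidase) hands them to oxygen. The proton gradient that complexes I, III and IV build drives ATP synthase. Neurons use much of this ATP to restore ion gradients at synapses, and the mRNAs of many of these subunits are abundant in brain.

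All samples share 1 preparation of cortical mRNA from C57BL/6 mouse, adult and female. An array of 5 µg without amplification is called bulk here. Aliquots of 10, 1 or 0.1 pg, meant to reach the scale of RNA in single cells, were amplified by antisense RNA transcription for 2 or 4 rounds. Bulk and 10 pg after 2 rounds have 1 array each, and 1 and 0.1 pg after 2 rounds and 10, 1 and 0.1 pg after 4 rounds have 3 arrays each, 17 in all. With a single source of mRNA, the spread within a group is that between separate amplifications and not between animals. A level here is that of cortex as a whole, where the number of cells of a type and the RNA per cell cannot be told apart. The groups share the same mRNA and do not differ in the cells that it came from.

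A level is a log2 value with the median of its array set to 0 and the width of the arrays made equal, and a difference of 1 between levels is about a doubling. A gene with several probe sets is represented by whichever of them averaged highest over the 17 arrays. Probe sets differ in how strongly they bind, so levels were compared for the same gene across arrays and not between genes. The deposited values come with no call of presence, and a level near or below 0 may not be above background.

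On bulk, 7 of 8 pan-neuronal marker genes were above the array median, with a median level of 4.18, while the median levels of liver, heart and muscle, and testis markers were -0.45, -0.69 and -0.95. The single array of 10 pg after 2 rounds stood apart from all others. It holds 872 distinct values, against 3771 in bulk, so that several subunit genes share a level on it (0.72 for Ndufa12, Ndufb1, Ndufs5, Ndufv1, Atp5b and Atp5c1). It had the highest level of the 17 arrays for 40 of the 81 subunit genes, or 49.4%, against 9.92% of all genes. Of the complex I genes 25 of 34 were highest on it, of complex II 3 of 4, of complex III 1 of 9, of complex IV 5 of 17 and of ATP synthase 6 of 17. Among the comparisons, its values enter only that of amplified groups with bulk, and that comparison is given with and without it. They also enter the counts of genes within 1 of bulk in all 6 amplified groups, which are given only with it.

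**Figure D1:**
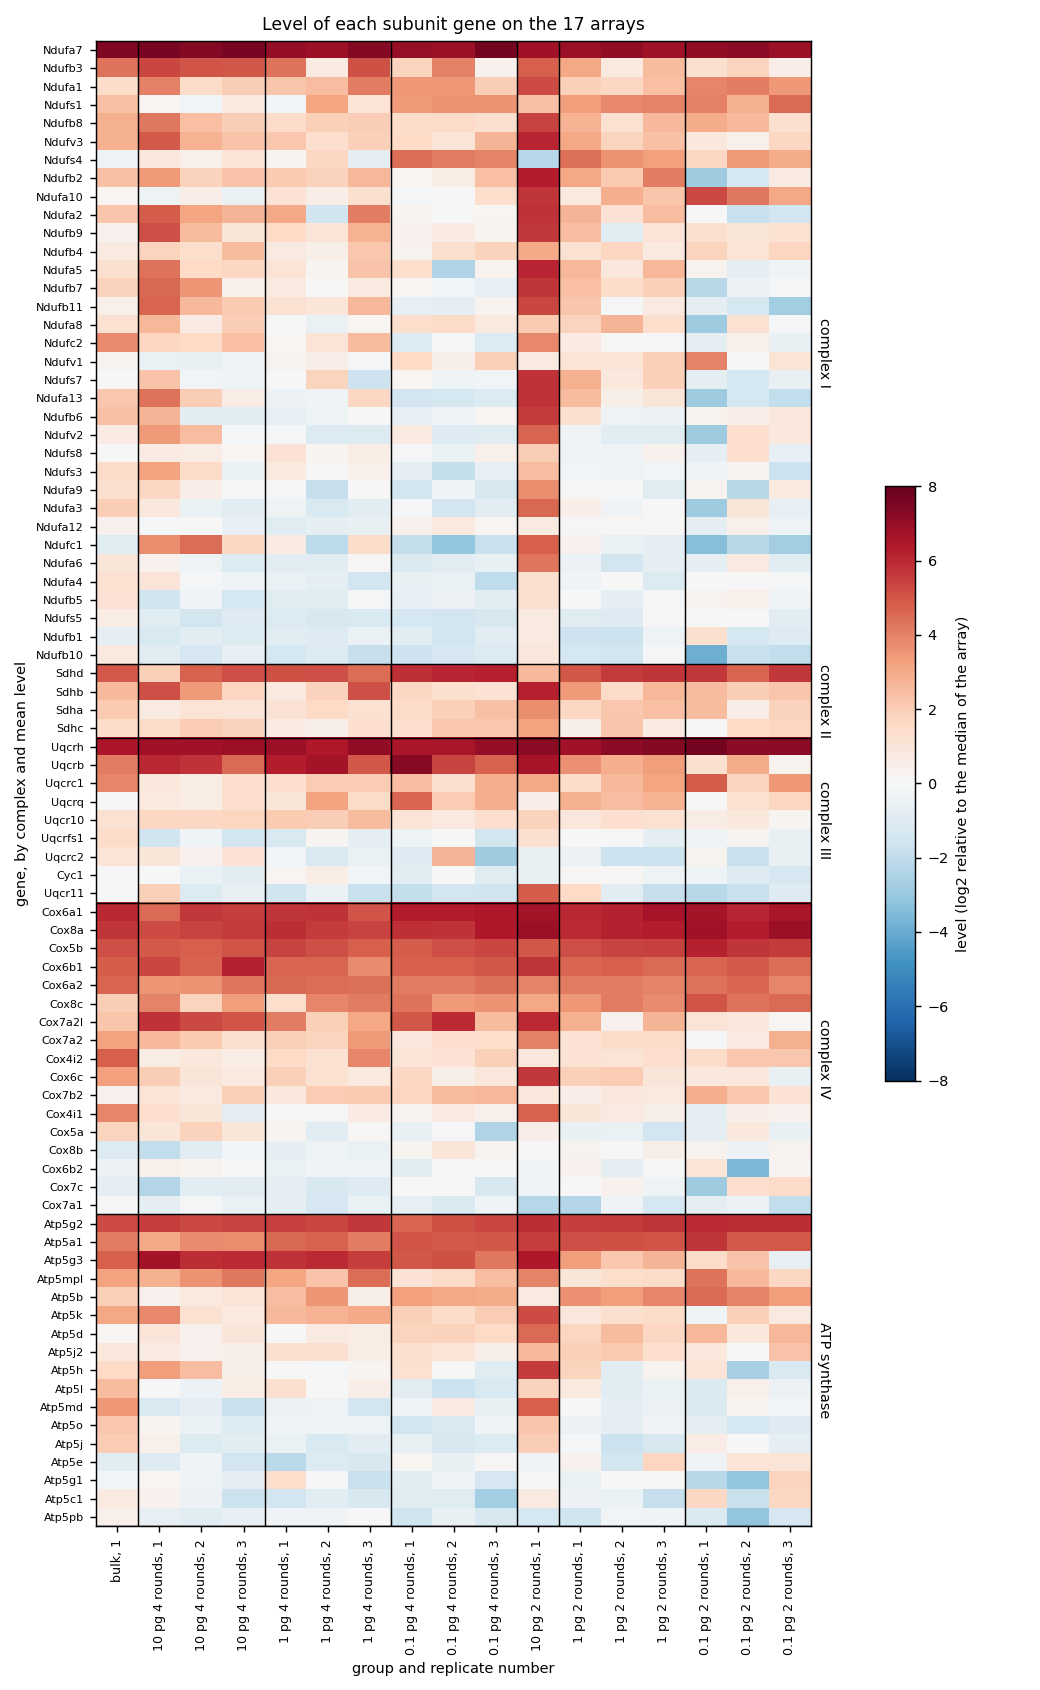
Level of each of the 81 subunit genes (rows, by complex and by mean level) on the 17 arrays (columns, by group and replicate number); the color gives the log2 level, from blue (below the array median) to red (above). Ndufa7, Uqcrh, Cox6a1, Cox8a and Atp5g2 are red on every array, and most complex I genes are redder on the 10 pg array after 2 rounds than on any other.

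Promoter sequence was examined as a feature that the choice of genes did not use. Transcription factors NRF1, GABPA (also called NRF2) and YY1 are known regulators of nuclear genes for mitochondrial proteins. RefSeq promoters (GRCm38.p6, 250 bases before to 50 after the start) were found for 66 of the 81 genes. The letters GCGCATGC, read on both strands for NRF1, were in 9 of the 66 promoters (13.6%), against 4.68% of 14452 promoters of genes on the array. The letters CCGGAAG for GABPA were in 17 (25.8%, against 15.0%), and AAGATGGC for YY1 in 9 (13.6%, against 4.07%). At least 1 of the 3 was in 29 promoters (43.9%, against 21.6%). A match of letters is a description and not a site of binding. The 4 windows that follow lie before the start of subunit genes that passed a test in the dilutions or stayed near bulk, and capitals mark the letters searched, as read on the strand of the gene. They are Ndufs3 (chr2:90904730-90904759, minus strand), Sdhd (chr9:50603877-50603906, minus strand, with the GABPA letters on the opposite strand), Cox6a1 (chr5:115349102-115349131, minus strand) and Atp5g2 (chr15:102671071-102671100, minus strand).
Ndufs3, GABPA: cccgcgtccgcCCGGAAGaagagtcactgc
Sdhd, GABPA: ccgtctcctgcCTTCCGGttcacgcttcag
Cox6a1, NRF1: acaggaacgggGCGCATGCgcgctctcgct
Atp5g2, NRF1: tggctccggccGCGCATGCgcagagccttc
Ndufs3 was lower and Sdhd higher at 0.1 than at 10 pg after 4 rounds, and both hold the GABPA letters, Ndufs3 a second time at its start on the opposite strand. Each of these calls held in 1 of 6 cases with 1 array left out. Ndufc1 and Ndufs4, which also passed that test, hold the YY1 letters after the start. The probe sets that represent Cox6a1 and Atp5g2, with the NRF1 letters, did not pass that test and stayed within 1 of bulk in all groups. Cox6a1 also holds the GABPA letters (chr5:115348956-115348985, minus strand), as do Uqcrh and Cox6b1, which likewise stayed within 1 of bulk. All groups are dilutions of the same mRNA, and a link between the letters and these values was not tested.

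Probe sets of several subunit genes with a high bulk level kept it through dilution and amplification, at a share near that of all genes of such a level. Of 14 genes with a bulk level over 4, 7 (50%) stayed within 1 of bulk in the mean of all 6 amplified groups, against 40.4% of all genes with such a bulk level. They are Ndufa7 and Uqcrh, Cox6a1, Cox5b, Cox6b1 and Cox6a2 of complex IV, and Atp5g2, which encodes subunit c of the ring that turns in ATP synthase. Cox8a, at 5.74 in bulk, was within 1 in 5 of the 6 groups. It missed only on the single 10 pg array after 2 rounds, at 1.12 above bulk. Ndufa7, an accessory subunit of the matrix arm of complex I, lay between 6.70 and 7.68 on the 17 arrays, with 7.40 in bulk. Uqcrh, the hinge protein of complex III that links cytochromes c1 and c, lay between 6.39 and 7.64, with 6.49 in bulk. Both genes, chosen after their values were seen, span a range of 0.980 and 1.25 over all inputs and rounds. Cox5b ranged from 4.79 to 6.13 around a bulk level of 5.18, and Atp5g2 from 4.63 to 5.99 around 5.21. These values rest on the probe set with the highest mean, and others of the same genes varied more. Another of the 5 probe sets of Ndufa7 was at -0.22 in bulk and ran from -0.91 to 4.68, and another of the 6 of Cox5b was at 4.02 in bulk and ran from -1.15 to 6.02. Another of the 3 of Atp5g2 was at 3.93 in bulk and ran from 0.27 to 5.65.

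Genes of intermediate bulk level did not, here as in the array as a whole. Of 21 genes with a bulk level between 2 and 4, 0 stayed within 1 of bulk in all 6 amplified groups, against 3.57% of all genes in this range, and of 46 genes below 2, 5 did (10.9%, against 16.1%). In all, 12 of 81 genes did so (14.8%, against 17.1% of all genes). Among genes with a bulk level below 2, Sdhc, Ndufs8, Atp5j2 and Ndufb1 missed this only on the 10 pg array after 2 rounds. The share of subunit genes within 1 of bulk was 51.9% for 10 pg after 4 rounds (all genes 76.1%), 53.1% for 1 pg (72.2%) and 35.8% for 0.1 pg (56.9%). After 2 rounds it was 48.1% for 1 pg (all genes 55.8%) and 39.5% for 0.1 pg (52.0%). In each of these groups the share was below that of all genes, and it was lower at 0.1 pg than at 1 pg after either number of rounds. These shares have no test and are not matched for bulk level. Below 2 in bulk were 46 of the 81 subunit genes, against 14238 of all 18193 genes.

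Median levels per complex are given as a description, with no test. The median over the 34 complex I genes was 1.24 in bulk. After 4 rounds it was 2.48, 1.01 and 0.508 on the 3 arrays of 10 pg (mean 1.33 ± 1.02, SD, n = 3), 0.368 ± 0.266 at 1 pg and 0.0184 ± 0.234 at 0.1 pg. With 2 rounds it was 4.64 on the single 10 pg array, 0.790 ± 0.493 at 1 pg and 0.0826 ± 0.276 at 0.1 pg. At 0.1 pg the median complex I gene was thus close to the median of the array after either number of rounds, and the array medians of 10 pg and 0.1 pg after 4 rounds do not overlap.

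In the other complexes the group medians did not fall at each step of input after 4 rounds. After 2 rounds, with the single 10 pg array, those of 2 complexes did. They were 3.45, 2.42 and 2.12 at 10, 1 and 0.1 pg for complex II, and 1.85, 1.35 and 0.453 for complex III. The complex IV median was 3.23 in bulk and between 1.21 and 2.15 in the groups with 3 arrays. That of ATP synthase was 2.02 in bulk and between 0.420 and 0.751, while complex II (2.34 in bulk) lay between 1.87 and 2.42. Complex III (1.22 in bulk) lay between 0.972 and 1.48 except at 0.1 pg after 2 rounds, where it was 0.453 ± 0.354. The medians over all genes stayed between 0.272 and 0.565 in the 7 groups. The spread between amplifications was wider for the subunit genes than for all genes at 10 pg after 4 rounds, with a median SD of 0.592 against 0.404, and there it was 0.831 over the 34 genes of complex I and 1.00 over the 4 of complex II. In the other groups it was 0.432, 0.459, 0.468 and 0.785 for 1 pg and 0.1 pg after 4 rounds and for 1 pg and 0.1 pg after 2 rounds, against 0.528, 0.406, 0.455 and 0.820 for all genes.

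**Figure D2:**
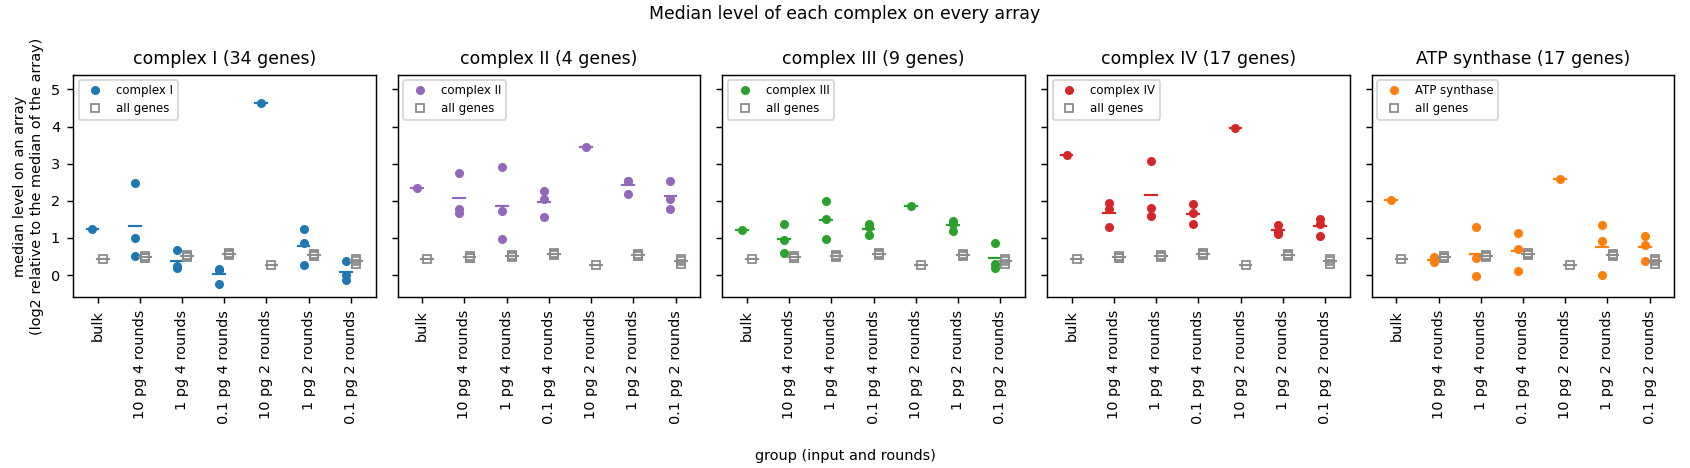
Median level over the genes of each complex on every array (points, with a line at the group mean) beside the median over all genes (grey squares), as a log2 level, for the 7 groups of input and rounds. The mean of the complex I medians after 4 rounds is 1.33 at 10 pg and 0.0184 at 0.1 pg, while the median is 4.64 on the 10 pg array after 2 rounds.

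The widest span of input at the same number of rounds asks what a dilution from 10 to 0.1 pg does to these transcripts. After 4 rounds 6 of the 81 subunit genes were higher at 0.1 pg and 8 were lower by limma's test at an adjusted p of 0.05 (17.3% in all), against 9.97% of all genes called in either direction, 4.97% higher and 4.99% lower. The genes that were lower were 7 of complex I and Cox5a, and those that were higher were 2 of complex I, 2 of ATP synthase, Sdhd and Uqcrq. The median difference, 0.1 minus 10 pg, was -0.44 over the subunit genes and 0.13 over all genes, and 52 of the 81 differences were negative. Without replicate 1 of 10 pg the median over the subunit genes was -0.15. In complex I the median was -0.75 with 27 of 34 negative, and in complex II 0.55, complex III -0.04, complex IV 0.21 and ATP synthase -0.44. Of all subunit genes, 15 (18.5%) had every 0.1 pg array above every 10 pg array and 20 (24.7%) had every one below, against 25.8% and 17.9% of all genes. In complex I these were 4 above and 13 below.

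**Figure D3:**
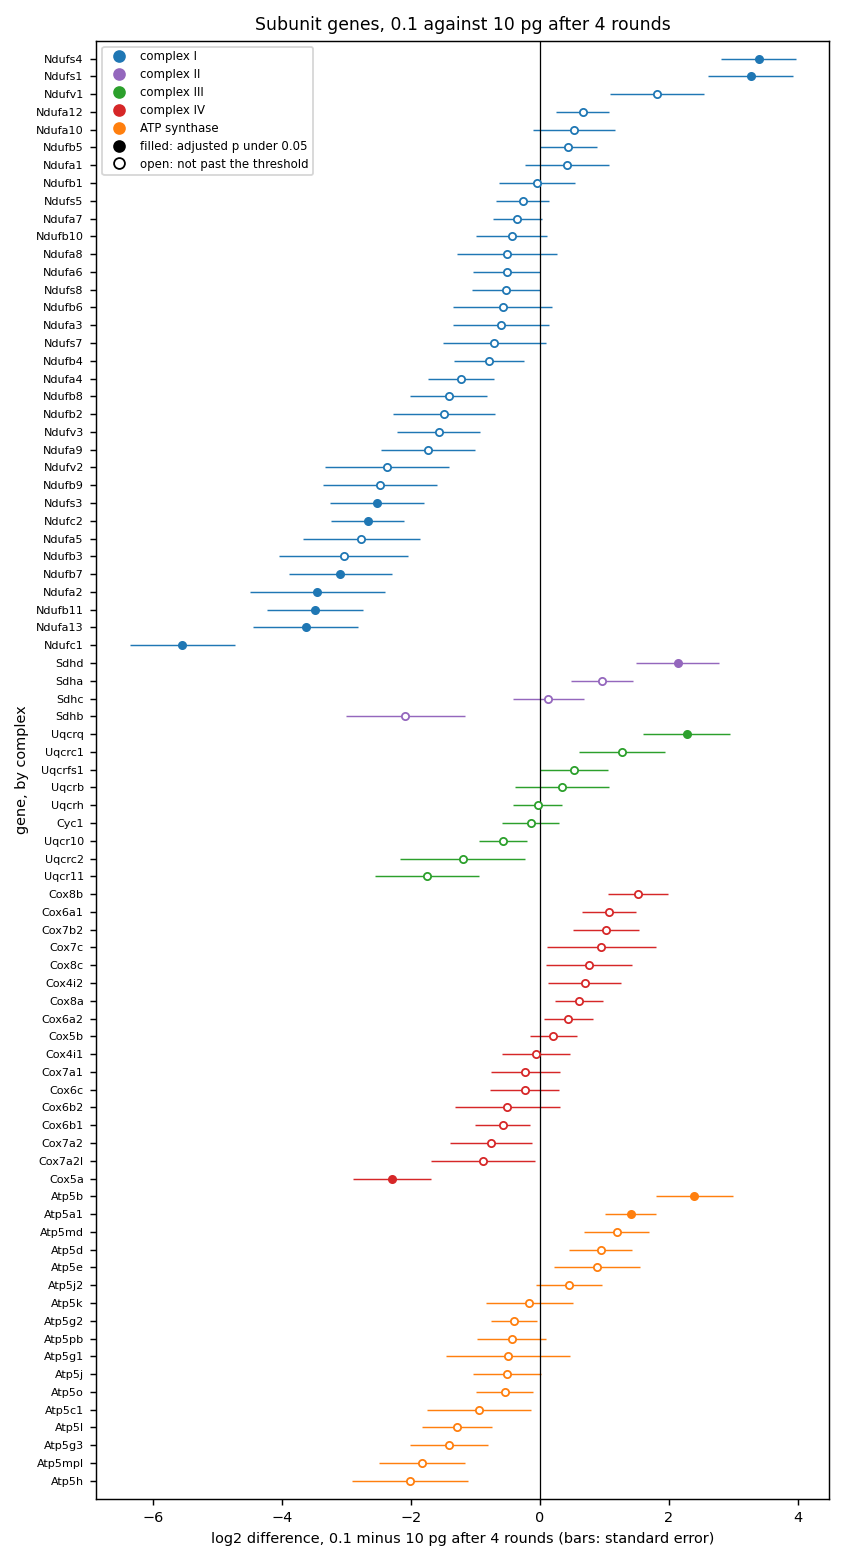
Log2 difference of each subunit gene between 0.1 and 10 pg after 4 rounds (points, with bars for the standard error), by complex; filled points passed an adjusted p of 0.05 and open points did not. Complex I spans from -5.55 for Ndufc1 to 3.39 for Ndufs4, with 27 of its 34 genes left of 0.

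Accessory subunits of the membrane arm of complex I, which help to build and hold the proton pumps, made up most of the genes that were lower. Ndufc1 was at 3.75, 4.46 and 1.65 on the 10 pg arrays and at -1.91, -3.09 and -1.81 on the 0.1 pg arrays, while bulk was at -0.98. Its 10 pg arrays were above bulk and its 0.1 pg arrays below, a difference of -5.55 (standard error 0.814, adjusted p = 0.000703). Ndufc2 was at 1.71, 1.60 and 2.39 and at -1.11, -0.09 and -1.11, with 3.75 in bulk. All amplified arrays of 4 rounds were below bulk for this gene, and 10 and 0.1 pg differed by -2.67 (standard error 0.566, adjusted p = 0.00831). Ndufb11 was at 4.66, 2.59 and 2.11 and at -0.67, -0.72 and 0.26, with 0.38 in bulk. It was above bulk on all 10 and 1 pg arrays of 4 rounds and below it on the 0.1 pg arrays, with a difference between 0.1 and 10 pg of -3.49 (standard error 0.742, adjusted p = 0.00846).

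Ndufa13, also known as GRIM-19, was at 4.34, 1.95 and 0.58 on the 10 pg arrays and at -1.53, -1.40 and -1.11 on the 0.1 pg arrays, with 2.17 in bulk. The SD was 0.211 at 0.1 pg and 1.90 at 10 pg, for a difference of -3.64 (standard error 0.814, adjusted p = 0.0112). Ndufb7 was at 4.62, 3.55 and 0.44 and at 0.15, -0.21 and -0.64, a difference of -3.10 (standard error 0.800, adjusted p = 0.0242). Replicate 3 of 10 pg lay just above the 0.1 pg arrays. Ndufa2, an accessory subunit of the NADH-oxidizing module, was at 4.83, 3.16 and 2.71 and at 0.20, -0.01 and 0.15, a difference of -3.46 (standard error 1.04, adjusted p = 0.0490). On the 1 pg arrays between them it was at 3.06, -1.57 and 4.10, the widest spread of any subunit gene in that group (SD 3.02).

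The core subunits of complex I, which carry the flavin and the iron-sulfur clusters or form the site of ubiquinone reduction, gave 2 calls in opposite directions. Ndufs1, the largest iron-sulfur subunit, was at 0.14, -0.20 and 0.80 on the 10 pg arrays and at 3.39, 3.58 and 3.58 on the 0.1 pg arrays, with 2.34 in bulk. Bulk lay between the groups, and 0.1 pg was higher by 3.27 (standard error 0.661, adjusted p = 0.00624). Ndufs3, a core subunit next to the ubiquinone site, was at 3.24, 1.51 and -0.55 and at -0.80, -1.92 and -0.68, a difference of -2.53 (standard error 0.730, adjusted p = 0.0405). Replicate 3 of 10 pg was close to the 0.1 pg arrays. The other core subunits did not pass: the difference was 1.82 for Ndufv1, which binds NADH and the flavin, -2.38 for Ndufv2, -0.71 for Ndufs7 and -0.53 for Ndufs8, with adjusted p from 0.129 to 0.621.

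Ndufs4, an accessory subunit next to the electron entry whose loss in mice is a model of Leigh syndrome, had the largest rise of all subunits. It was at 0.87, 0.41 and 1.11 on the 10 pg arrays and at 4.46, 4.13 and 3.97 on the 0.1 pg arrays, with -0.43 in bulk, a difference of 3.39 (standard error 0.583, adjusted p = 0.00218). Of the arrays of 4 rounds those of 0.1 pg were farthest from bulk. The value rests on 1 of the 4 probe sets of this gene, for the other 3 differed by 1.39, -0.21 and -0.41 and none of them passed.

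In complex II, Sdhd, a membrane anchor, was at 1.91, 4.72 and 5.13 on the 10 pg arrays and at 5.86, 6.10 and 6.21 on the 0.1 pg arrays, with 4.93 in bulk. Replicate 1 of 10 pg was far below the others, and the difference was 2.14 (standard error 0.646, adjusted p = 0.0493). Without that array it was 1.13 (adjusted p = 0.225). The iron-sulfur subunit Sdhb was at 5.14, 3.44 and 1.74 on the 10 pg arrays and at 1.63, 1.27 and 1.14 on the 0.1 pg arrays, and its difference of -2.09 did not pass (adjusted p = 0.170). Sdha, the flavoprotein, differed by 0.96 and the anchor Sdhc by 0.13, neither past the threshold.

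In complex III, Uqcrq, a small ubiquinone-binding subunit, was at 0.76, 0.61 and 1.37 on the 10 pg arrays and at 4.66, 2.02 and 2.88 on the 0.1 pg arrays, with 0.04 in bulk, for a difference of 2.28 (standard error 0.673, adjusted p = 0.0452). That probe set is 1 of 4 of the gene, and under other settings the difference was as low as 0.62. The other 8 genes of the complex did not pass, among them those of the catalytic subunits, cytochrome c1 (Cyc1, -0.15) and the Rieske protein (Uqcrfs1, 0.53), and the core proteins Uqcrc1 (1.27) and Uqcrc2 (-1.20). The lowest difference was that of Uqcr11 (-1.75, adjusted p = 0.186). Uqcrc2 was at -1.04, 2.74 and -2.85 on the 0.1 pg arrays, the widest spread there (SD 2.85).

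In complex IV 1 gene of 17 was called. Cox5a, a matrix-side subunit, was at 0.98, 1.83 and 0.94 on the 10 pg arrays and at -0.57, -0.16 and -2.40 on the 0.1 pg arrays, with 1.76 in bulk. All 0.1 pg arrays were below all 10 pg arrays, a difference of -2.30 (standard error 0.607, adjusted p = 0.0272). Its partner Cox5b, with a difference of 0.21 (standard error 0.368), and Cox4i1, with -0.06 (standard error 0.521), did not pass, and the highest difference of the complex was 1.52 for the muscle isoform Cox8b (adjusted p = 0.0515).

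In ATP synthase the probe sets that represent the alpha and beta subunits of the catalytic head were higher at 0.1 pg. Atp5b, the catalytic beta subunit, was at 0.34, 0.80 and 1.06 on the 10 pg arrays and at 3.29, 3.10 and 2.99 on the 0.1 pg arrays, with 1.90 in bulk, a difference of 2.40 (standard error 0.602, adjusted p = 0.0211). Atp5a1, the alpha subunit, was at 3.05, 3.81 and 3.74 and at 5.00, 4.89 and 4.94, with 4.11 in bulk, a difference of 1.41 (standard error 0.396, adjusted p = 0.0359). In both genes bulk lay between the groups, and the SD at 0.1 pg was 0.153 for Atp5b and 0.0530 for Atp5a1. Another of the 3 probe sets of Atp5a1 was called in the opposite direction, and with their median the gene differed by -1.86. The call of Atp5a1 held in 0 of 6 cases with 1 array left out. The gamma subunit Atp5c1, which turns inside the head, differed by -0.94 and did not pass (adjusted p = 0.500). The lowest difference was -2.01 for Atp5h of the stalk (adjusted p = 0.173).

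**Figure D4:**
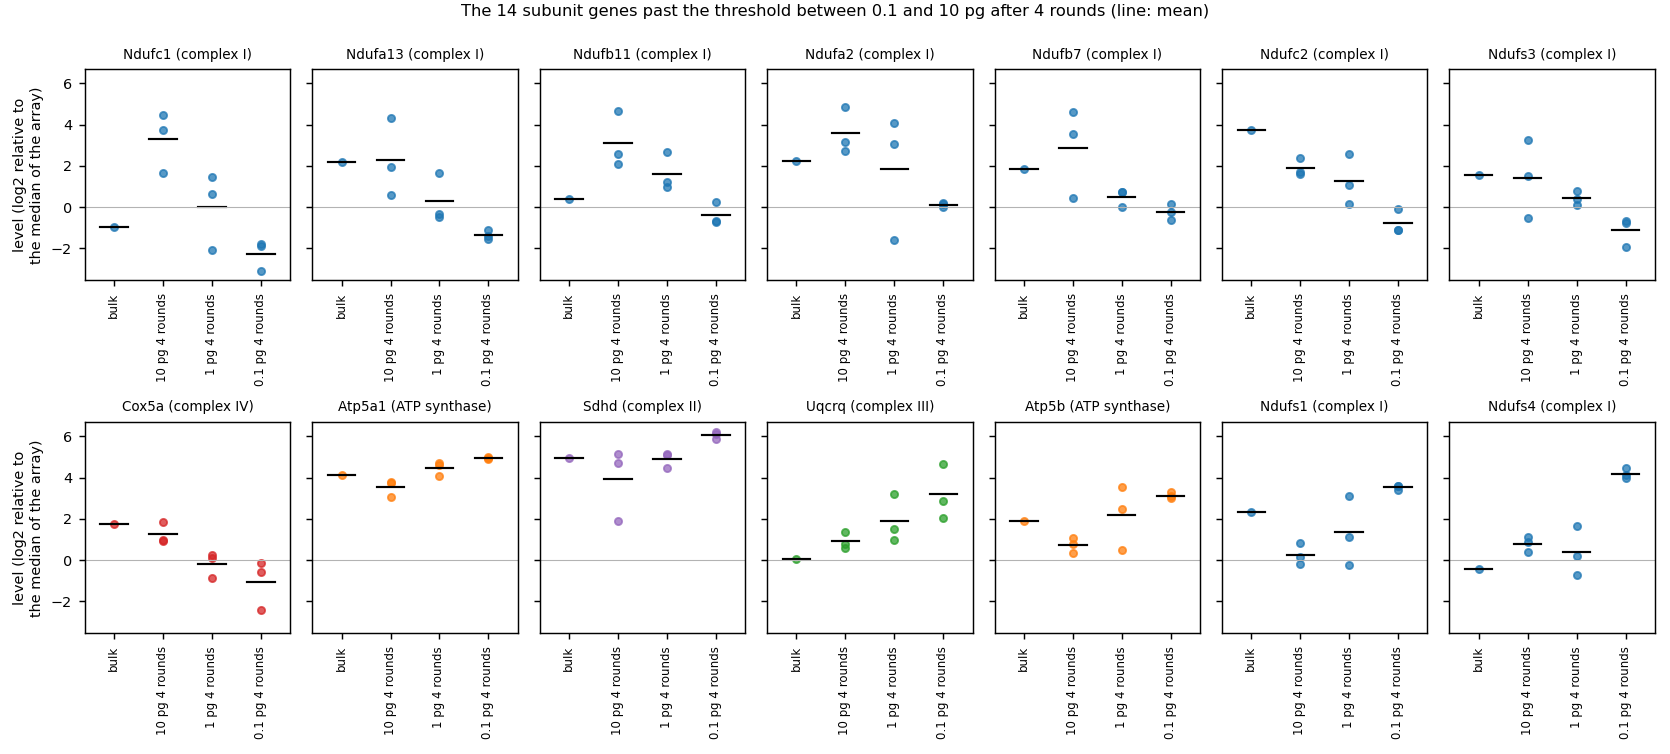
Levels (log2 relative to the array median) of the 14 subunit genes past the threshold between 0.1 and 10 pg, on each array of bulk and of 10, 1 and 0.1 pg after 4 rounds, with a line at the group mean. The 8 genes that were lower at 0.1 pg come first, from Ndufc1 (-5.55) on, and the 6 that were higher follow, up to Ndufs4 (3.39); in none of the 14 do the 10 and 0.1 pg arrays overlap.

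Most of these calls depend on single arrays. Ndufc1, Ndufc2, Ndufs1 and Ndufs4 passed with any 1 of the 6 arrays left out. Ndufa13 and Ndufb11 were lost only without replicate 1 of 10 pg, at -2.61 (adjusted p = 0.0669) and -2.72 (adjusted p = 0.0568). Atp5b and Cox5a passed in 2 of the 6 cases, Ndufb7, Ndufs3, Sdhd and Uqcrq in 1, and Atp5a1 and Ndufa2 in 0, although each of these 8 kept its direction. The number of called subunit genes was 14 with all arrays. It was 4, 6 and 14 without replicate 1, 2 or 3 of 10 pg, and 7, 10 and 7 without replicate 1, 2 or 3 of 0.1 pg. Replicate 1 of 10 pg had the highest complex I median of its group, 2.48.

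Markers of cell types moved in the same comparison. Of 8 pan-neuronal markers 0 were higher and 4 lower at 0.1 pg (Snap25, Eno2, Nefl and Stmn2), with a median difference of -1.91. The median level of these 8 genes ranged from 4.81 to 5.07 on the 10 pg arrays, from 2.94 to 3.49 on the 1 pg arrays and from 0.97 to 3.88 on the 0.1 pg arrays after 4 rounds. Of the other markers Neurod6, 1 of 3 for excitatory neurons (-4.42, list median -0.38), and Slc32a1, 1 of 3 for inhibitory neurons (-2.83, list median -1.43), were lower. Mbp, 1 of 3 for oligodendrocytes (2.99, list median 0.95), and Acrv1, 1 of 5 for testis (3.35, list median 0.65), were higher. All groups were drawn from the same mRNA, and the part of these markers in the result was not tested.

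The 10-fold step from 10 to 1 pg after 4 rounds shares its 10 pg arrays with the comparison above. Here 0 subunit genes passed, against 0.654% of all genes (0.0770% higher and 0.577% lower). At an unadjusted p under 0.05 there were 14, of which 3 were higher and 11 lower at 1 pg, and the methods' t-test called 0. The median difference was -0.29 (all genes 0.07), or 0.013 without replicate 1 of 10 pg, and in complex I 27 of 34 differences were negative with a median of -0.67. The lowest was again that of Ndufc1, at -3.28 (standard error 0.814, adjusted p = 0.0879), and its 1 pg arrays were at 0.65, -2.07 and 1.45. The highest was 1.59 for Cox4i2 (adjusted p = 0.307). Of the pan-neuronal markers 2 of 8 were lower in the same comparison, with a median difference of -1.13, and their part in it was not tested. With 1 array left out the count was 0 to 2: Atp5b and Ndufc1 passed without replicate 3 of 1 pg, and Ndufb7 and Ndufc1 without replicate 3 of 10 pg.

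Between 0.1 and 1 pg the difference was taken over 2 and 4 rounds together, with 6 arrays a side. Here 3 complex I genes were lower at 0.1 pg and 0 genes higher, against 1.50% of all genes (0.220% higher and 1.28% lower). Ndufb2, a small membrane-arm subunit, was at 2.12, 1.87 and 2.66 (4 rounds) and 3.06, 2.12 and 4.08 (2 rounds) at 1 pg. At 0.1 pg it was at 0.13, 0.57 and 2.38 and at -2.83, -1.38 and 0.66, so that a single 0.1 pg array reached the range of 1 pg, and the difference was -2.73 (standard error 0.557, adjusted p = 0.0237). Ndufa13 was between -0.49 and 2.50 at 1 pg and between -2.83 and -1.11 at 0.1 pg, which do not overlap (-2.49, standard error 0.575, adjusted p = 0.0448). Ndufb11 was between -0.09 and 2.66 at 1 pg and between -2.75 and 0.26 at 0.1 pg (-2.28, standard error 0.525, adjusted p = 0.0440). Ndufa13 and Ndufb11 were also among the genes lower at 0.1 than at 10 pg, a comparison that shares the 0.1 pg arrays of 4 rounds.

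The 3 calls between 1 and 0.1 pg rest on single arrays. Ndufb2 passed in 6 of 12 cases with 1 array left out, Ndufb11 in 3 and Ndufa13 in 2. No subunit gene passed when replicate 1 or 2 of 0.1 pg (4 rounds) or replicate 1 or 3 of 1 pg (either number of rounds) was left out. Leaving out replicate 3 of 0.1 pg (either number of rounds) gave 1 gene, and leaving out replicate 2 of 1 pg (4 rounds) gave 7. The median difference over the subunit genes was -0.02 (all genes 0.04). Of the 8 pan-neuronal markers 2 were lower, with a median difference of -0.19 over the 8, and their part was not tested. In the other complexes the differences ranged from -1.35 for Atp5g3 to 0.98 for Cox7b2, none past the threshold.

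At the same inputs (1 and 0.1 pg, 6 arrays a side), 3 subunit genes were higher and 1 was lower after 4 than after 2 rounds, against 4.27% of all genes called (2.36% higher and 1.91% lower). The median difference, 4 minus 2 rounds, was -0.09 (all genes -0.05). Of the 8 pan-neuronal markers 1, Snap25, was higher by 3.34 (adjusted p = 0.000775), while the median difference over the 8 was -0.13. Their part was not tested. Uqcrb, a small subunit of complex III near the ubiquinone site, was at 3.64, 2.88 and 3.34 for 1 pg and at 1.26, 2.97 and 0.27 for 0.1 pg after 2 rounds. After 4 rounds it was at 6.31, 6.68 and 4.98 and at 7.28, 5.39 and 4.72, above every array of 2 rounds and, on all 6, above the bulk level of 4.16. The difference was 3.50 (standard error 0.519, adjusted p = 0.00274).

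Atp5g3, which encodes the same mature subunit c as Atp5g1 and Atp5g2, was at 3.35, 2.16 and 2.70 for 1 pg and at 1.46, 2.29 and -0.68 for 0.1 pg after 2 rounds. After 4 rounds it was at 5.78, 5.98 and 5.51 and at 4.97, 5.12 and 4.19. The sides do not overlap, and those of 4 rounds lie around the bulk level of 4.76, for a difference of 3.38 (standard error 0.431, adjusted p = 0.00122). Every array of 4 rounds was above every array of 2 rounds for these 2 subunit genes, against 0.654% of all genes, and 1 had every array below, against 1.67%. Atp5g2 and Atp5g1 did not pass in this comparison.

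Cox7a2l is described as joining complexes III and IV into supercomplexes, a role not examined here in C57BL/6 mice. Its levels were 2.83, 0.32 and 2.70 for 1 pg and 1.04, 0.86 and 0.14 for 0.1 pg after 2 rounds. The levels with 4 rounds were 4.07, 1.93 and 3.06 for 1 pg and 4.96, 5.96 and 2.55 for 0.1 pg. The sides overlap, and the difference was 2.44 (standard error 0.570, adjusted p = 0.0282). It was lost in 5 of 12 cases with 1 array left out, with the highest adjusted p at 0.0727 without replicate 1 of 1 pg after 4 rounds. Ndufa10, an accessory subunit of the membrane arm, was lower after 4 rounds. After 2 rounds it was at 0.75, 2.93 and 2.20 for 1 pg and at 5.30, 4.24 and 3.09 for 0.1 pg. With 4 rounds the levels were 1.13, 0.53 and 1.26 for 1 pg and -0.18, -0.01 and 1.38 for 0.1 pg, with 0.13 in bulk, and the mean of 4 rounds was 0.69 against 3.08 for 2 rounds (-2.40, standard error 0.452, adjusted p = 0.0115). Uqcrb, Atp5g3 and Ndufa10 passed in all 12 cases.

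**Figure D5:**
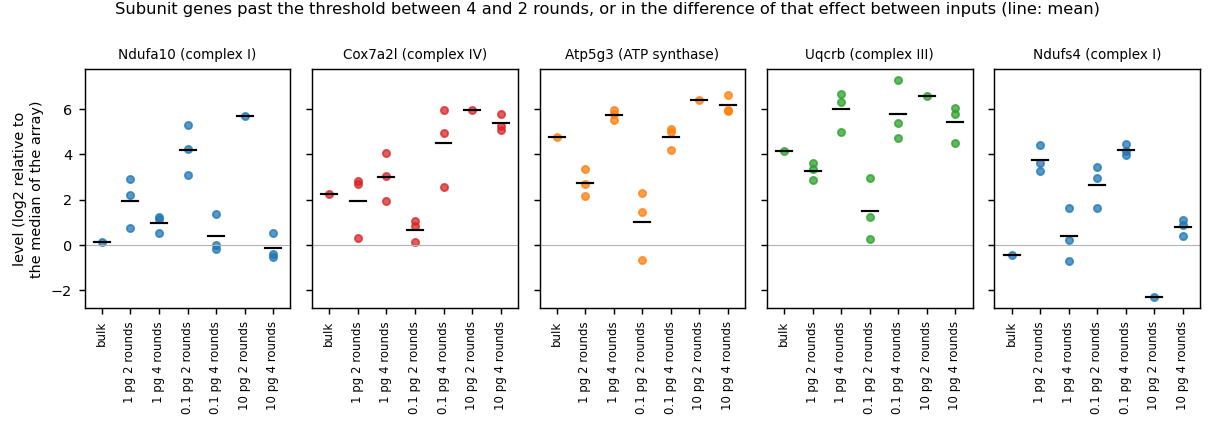
Levels (log2 relative to the array median) on each array, with a line at the group mean, of the 4 subunit genes past the threshold between 4 and 2 rounds and of Ndufs4, by group of input and rounds. Atp5g3 and Uqcrb are higher after 4 than after 2 rounds on all arrays of 1 and 0.1 pg, Ndufa10 is lower in the mean with overlapping arrays, and the mean of Ndufs4 is lower after 4 rounds at 1 pg and higher at 0.1 pg.

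The effect of rounds differed between 0.1 and 1 pg for 1 subunit gene, Ndufs4, against 4.00% of all genes (3.03% positive and 0.967% negative). At 1 pg its levels were 4.40, 3.62 and 3.26 after 2 rounds against 0.21, 1.65 and -0.70 after 4, a difference of -3.38. At 0.1 pg they were 1.64, 3.42 and 2.94 against 4.46, 4.13 and 3.97, a difference of 1.52. The 2 differences are 4.90 apart (standard error 0.825, adjusted p = 0.00707), and the call held with any 1 of the 12 arrays left out. Of the cell type markers C1qa, 1 of 4 for microglia (3.91, list median 1.04), and Acrv1, 1 of 5 for testis (6.52, list median 1.37), were positive here. Their part was not tested. Bulk was at -0.43, below all 12 arrays but replicate 3 of 1 pg after 4 rounds. The value rests on the same probe set as above, and for the other 3 of this gene the differences were 0.30, 1.42 and -0.28 apart, none past the threshold. The highest values of the other complexes included 3.02 for Uqcrq, and the lowest was -3.12 for Atp5mpl, with adjusted p of 0.0857 and 0.0756. With 1 array left out the count of subunit genes was 1 to 5: leaving out replicate 3 of 0.1 pg (2 rounds) gave 5, replicate 2 of 1 pg (4 rounds) 4 and replicate 2 of 0.1 pg (2 rounds) 2.

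Bulk was set against the average over the 6 amplified groups to see which subunits the procedure as a whole moved. The test takes the spread of the single bulk array from the groups of 3, and a deviation of that array and an effect of amplification cannot be told apart. Of the 81 genes 2 were lower and 0 higher, against 0.819% of all genes (0.115% higher and 0.704% lower). Of the 8 pan-neuronal markers 1, Rbfox3, was higher than in bulk (2.65), while the median difference over the 8 was -0.33. Their part was not tested. Cox4i2, the isoform of subunit IV known from lung and induced by low oxygen, was at 4.77 in bulk and lower on all 16 amplified arrays. It was at 0.57, 0.83 and 0.59 for 10 pg, at 1.59, 1.25 and 3.93 for 1 pg and at 1.03, 1.13 and 1.91 for 0.1 pg after 4 rounds. After 2 rounds it was at 0.92 for 10 pg, at 1.16, 1.11 and 1.36 for 1 pg and at 1.46, 2.14 and 2.16 for 0.1 pg. The difference was -3.38 (standard error 0.719, adjusted p = 0.0323), and it was lost, at -3.35 with an adjusted p of 0.0516, without replicate 1 of 0.1 pg after 4 rounds.

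Atp5md, a small membrane subunit of ATP synthase known as DAPIT, was at 3.46 in bulk, at 4.79 for 10 pg after 2 rounds and between -1.76 and 0.72 on the other 15 amplified arrays. The difference was -3.14 (standard error 0.638, adjusted p = 0.0261). The 10 pg array after 2 rounds was therefore the only amplified array above bulk, and the call held with any other amplified array left out. The most common isoform of subunit IV, Cox4i1, was at 3.89 in bulk, at 4.74 for 10 pg after 2 rounds and between -0.72 and 1.33 on the other 15. It did not pass over the 6 groups. Without the 10 pg array after 2 rounds 5 subunit genes were lower than bulk, Cox4i1, Atp5o and Ndufc2 in addition to these 2, and the median difference over the subunit genes was -0.49 in place of -0.17. Over all 6 groups 14 subunit genes were lower and 4 higher at an unadjusted p under 0.05. With 1 array of the groups of 3 left out the count was 1 to 4: 4 passed when any replicate of 0.1 pg (2 rounds), replicate 3 of 1 pg (4 rounds) or replicate 1 of 10 pg (4 rounds) was left out, and 1 when replicate 1 of 0.1 pg (4 rounds) was.

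Several subunits exist as isoforms of different tissues, and each was followed across its own arrays. Of the isoforms known from all tissues, Cox6a1 (bulk 6.03, 4.56 to 6.67 over 17 arrays), Cox6b1 (4.86, 3.77 to 6.15) and Cox8a (5.74, 5.20 to 6.86) were high on all arrays. Cox7a2 was at 3.23 in bulk, at 4.03 for 10 pg after 2 rounds and between 0.00 and 3.40 on the other arrays. Of those known from heart and muscle, Cox6a2 was at 4.67 in bulk and between 3.50 and 4.64 elsewhere, whereas Cox7a1 (-0.17) and Cox8b (-1.10) were below the array median in bulk. The other probe set of Cox6a2 was at -1.43 in bulk and between -2.31 and 0.91 elsewhere. Of the isoforms known from testis, Cox8c was at 1.96 in bulk and above that on 14 of the 16 amplified arrays, Cox7b2 was at 0.36 and Cox6b2 at -0.50. None of the probe sets that represent these 10 genes passed in any of the 6 comparisons. Other probe sets of Cox6a1, Cox6b1 and Cox8a were lower at 0.1 than at 10 pg, as given below. On the deposited values, with median centering alone and after quantile normalization Cox8b was called in that comparison. With the median of the probe sets of a gene Cox6b1, Cox8a and Cox8b were called there, and Cox8a also between rounds.

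Probe sets of the same gene often disagreed. Of the 81 genes 48 have more than 1 probe set. Between 0.1 and 10 pg 15 of these had some probe sets called and 0 had all called, and over all 164 probe sets 6 were higher and 17 lower, against 4.04% and 4.83% of all probe sets (8.86% in all). Between 4 and 2 rounds 4 probe sets were higher and 5 lower (3.91% of all probe sets called), and the effect of rounds differed between inputs for 1 in the positive and 2 in the negative direction (3.59%). In Atp5a1 they were called in opposite directions. The probe set given above was higher by 1.41, while another was at 4.30, 1.07 and 0.56 on the 10 pg arrays and at -2.04, -1.50 and -1.08 on the 0.1 pg arrays, a difference of -3.52 (standard error 0.863, adjusted p = 0.0186), and the remaining 1 differed by -1.94 (adjusted p = 0.161). In the comparison of rounds Cox7a2l had a probe set higher by 2.44 and another that differed by -1.47 (adjusted p = 0.0231).

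Of genes that did not pass, Cox6a1, Cox6b1, Cox6c and Cox8a each have another probe set that was lower at 0.1 than at 10 pg, with differences of -3.50, -2.57, -3.42 and -1.93. In Ndufb11 2 of 3 probe sets were lower (-3.49 and -3.96), and in Ndufc2 2 of 4 (-2.67 and -2.74). The other probe set of Ndufc1 differed by -1.99 (adjusted p = 0.0652). For the effect of rounds, the other probe set of Uqcrb differed by -0.07 and that of Ndufa10 by 1.31, neither past the threshold. Of the 81 probe sets that represent a gene, 14 are marked by the manufacturer as open to binding of related transcripts. Of the genes called between 0.1 and 10 pg, Ndufa13, Ndufa2, Ndufb11, Sdhd and Uqcrq rest on such a probe set. Ndufa13 and Ndufb11 were also called between 0.1 and 1 pg. Which end or form of a transcript each probe set reads was not tested.

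Genes around the complexes were tested in the same fit. Between 0.1 and 10 pg, where 9.97% of all genes were called, 2 of 43 assembly factors were higher and 3 lower. Nubpl, which delivers iron-sulfur clusters to complex I, was higher by 3.26 and Sdhaf2, which helps to attach the flavin of Sdha, by 2.17. Cox17, the copper chaperone of complex IV, differed by -4.71 (standard error 0.876, adjusted p = 0.00376), Tmem70, for ATP synthase, by -1.89 and Ndufaf2, for complex I, by -1.80. Cox17 also differed by -2.98 between 0.1 and 1 pg. Of 24 genes for electron carriers and exchange 1 was higher, the coenzyme Q binding protein gene Coq10b (3.69), and of 16 genes of the tricarboxylic acid cycle 0 passed. Of 12 regulators of mitochondrial biogenesis Gabpa was higher (2.27) and Yy1 lower (-3.18).

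After 4 rather than 2 rounds, a comparison in which 4.27% of all genes were called, Slc25a4, the ADP/ATP carrier of the inner membrane, was higher by 2.89 (standard error 0.384, adjusted p = 0.00158). With it 2 more genes for electron carriers and exchange were higher, Etfa (1.62) and Coq10b (1.71), of 24 in all. Of the assembly factors Cox20 was higher (1.27) and Ndufaf3 lower (-1.73), and of the regulators Gabpb1 (-1.64) and Tfb1m (-1.68) were lower. For the difference between inputs in the effect of rounds, with 4.00% of all genes called, 3 of the 43 assembly factors were positive and 1 negative, 3 of the 24 genes for electron carriers and exchange were positive, and Ogdh of the tricarboxylic acid cycle was positive. The largest was Coa5, an assembly factor of complex IV (5.99). Between amplified groups and bulk, and between 1 and 10 pg, 0 genes of these 4 lists passed.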

How the data were processed

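The log2 values were made by the authors with RMA 2.0 (named in the submitters' processing notes), which per the methods summarized the probes of a probe set with an upper decile statistic, and were deposited for 17 Affymetrix Mouse 430 2.0 arrays. They ranged from 1.56 to 15.8, with array medians from 5.64 to 6.01. The centering and scaling that the methods describe are not in these values, so the array median was subtracted and the 10th to 90th percentile range of every array (4.22 to 4.97) was set to the mean range (4.63). Arrays have no read depth, and their number limits the precision.

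Of 45101 probe sets 64 controls were left out. Of the rest 34945 have 1 symbol, 932 several and 9160 none. The 7 group means were fitted with limma 3.58.1 (R 4.3.3) and eBayes (16.4 total degrees of freedom), two-sided, with Benjamini-Hochberg adjustment over 45037 probe sets and a threshold of 0.05. Every adjusted p is from this fit, or from the same model refitted where an array is said to be left out. Groups came from the labels. Replicates are repeated amplifications of 1 mRNA, and p-values measure only the spread between amplifications, which is technical. Tables and figures used python 3.11.15, numpy 2.4.6, pandas 2.3.3 and matplotlib 3.10.9, and the fit was tested on simulated data.

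Genes and lists were chosen with earlier results of these data known. Named were, per comparison, up to 6 called genes in each direction, the highest and lowest gene of each complex, core subunits, isoforms and genes with probe sets called in opposite directions. Other genes named for staying near bulk, sharing a level or being added by an alternative were chosen after their values were seen. Alternatives were other scalings, filters, thresholds, the methods' t-test, other probe set rules, arrays left out and a replicate block. Protein sequences were not used here.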

Additional observations from a re-analysis of the deposited data

Results flagged for a closer look

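The effect of rounds on Ndufs4 differed between inputs by a test of the difference itself, 4.90 on the log2 scale (standard error 0.825, limma adjusted p = 0.00707). From 2 to 4 rounds the level differed by 1.52 at 0.1 pg and by -3.38 at 1 pg. The other 3 probe sets of the gene gave 0.30, 1.42 and -0.28, none past the threshold. The cause was not tested.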

How the results depend on the processing

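At a false discovery rate of 0.1% the count of subunit genes was 1 (Ndufc1) between 0.1 and 10 pg and 0 in the other comparisons. The methods' t-test called 3 genes between 0.1 and 10 pg (Atp5b, Ndufs1 and Ndufs4, all higher), and 0 between 0.1 and 1 pg, between 4 and 2 rounds and against bulk, and at 0.1% it called 0 in each. By probe set the counts were 23 between 0.1 and 10 pg, 9 for rounds and 3 for the difference in the effect of rounds. Between 0.1 and 1 pg 1 gene was called on the deposited values and 1 after quantile normalization. Against bulk 4 were called on the deposited values, 5 with median centering alone, 4 after quantile normalization and 5 without the 10 pg array after 2 rounds, where the median difference was -0.49. For the difference in the effect of rounds 2 genes were called without probe sets of low mean and 0 with the median of the probe sets of a gene. The cause of these shifts was not tested.

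Of the 14 genes called between 0.1 and 10 pg 8 remained with the median of the probe sets of a gene (11 in all). Cox6b1, Cox8a and Cox8b were called in addition. Between rounds 2 of the 4 remained, and Atp5j2 and Cox8a were added. The sign turned under this rule for Atp5a1 (-1.86) and Ndufs4 (-0.067) between 0.1 and 10 pg. It also turned for Ndufs4 between 0.1 and 1 pg (-0.51), and for Cox7a2l between 1 and 10 pg (0.19) and between rounds (-0.45). For Sdhd it turned in the difference in the effect of rounds (-0.70). Against bulk, without the 10 pg array after 2 rounds, Sdhb was at -0.16 and Sdhd at 0.19, and Sdhd was at 0.033 by the t-test. With 1 replicate left out, in turn, counts ranged from 4 to 14 between 0.1 and 10 pg, 0 to 2 between 1 and 10 pg, 0 to 7 between 0.1 and 1 pg, 3 to 6 for rounds, 1 to 4 against bulk and 1 to 5 for the difference in the effect of rounds. The sign turned for 5 differences, of 4 genes, that had not passed: Sdhd between 1 and 10 pg (-0.021 to 1.59), Sdhb (-1.06 to 0.033) and Sdhc (-0.0049 to 0.54) for rounds, and Sdhb (-1.86 to 0.32) and Uqcrc1 (-1.30 to 0.22) for the difference in the effect of rounds. Of the other values of single genes with 1 replicate left out 613 kept direction and side of the threshold, 73 lost the call and 11 gained it, and under other settings 618, 86 and 6 did. Median differences kept their sign in 44 of 46 cases under other settings. With 1 replicate left out they ranged from -0.53 to -0.15 between 0.1 and 10 pg, -0.31 to 0.013 between 1 and 10 pg, -0.13 to 0.049 between 0.1 and 1 pg, -0.20 to -0.0091 for rounds, -0.26 to -0.083 against bulk and -0.016 to 0.25 for the difference in the effect of rounds.

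Replicate numbers did not pair the arrays: same-numbered arrays correlated at -0.199 to 0.139 in their deviations, 2 of 30 pairs were over 0.1, and 3 of 15 arrays correlated best with their own number. With the replicate number as a block the counts were 12 between 0.1 and 10 pg, 0 between 1 and 10 pg, 2 between 0.1 and 1 pg, 4 for rounds and 1 for the difference in the effect of rounds. No paired analysis was possible against bulk because bulk is a single array whose label gives no replicate number.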
